A study of Mus musculus with 4 samples.

Results

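The genes described here are 49 genes of mitosis and chromosome segregation: kinases and cyclins of mitotic entry, kinetochore and checkpoint genes, spindle motors, condensin subunits and genes of cell division itself. The members were given as a fixed list of symbols and were looked up by gene symbol in the expression table, which holds 49585 genes. All 49 were found. The rule looks up names and uses no measured value, but the list was chosen with earlier results of these data known.

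The cells were clones of 4T1, a mouse mammary carcinoma line used as a model of triple-negative breast cancer. The clones were 4T1-HM, which was highly metastatic, and 4T1-LM, which was lowly metastatic. Each was grown from a single cell, so each metastatic class was represented by 1 clone. Cells were cultured for 48 h with 50 μmol/L of deferasirox (DFX), an oral iron chelator, dissolved in DMSO, or with an equivalent amount of DMSO alone. The 4 conditions are named HM_Ctrl, HM_DFX, LM_Ctrl and LM_DFX, and all 4 derive from the same parental line. Each condition was sequenced as 1 bulk RNA library, so the spread between cultures is unknown and no p-value is given. Whether several wells were combined in a library is not given in the sources used here. A counting interval given below covers the sampling of fragments only, not variation between cultures.

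Cells enter mitosis when cyclin-dependent kinase 1 is activated by B-type cyclins, and they leave it when the anaphase-promoting complex (APC/C) marks the cyclins and securin for destruction. In between, kinetochores attach chromosomes to spindle microtubules, and the spindle checkpoint holds back the APC/C until every chromosome is attached. The transcripts of most of these genes accumulate in late S, G2 and M phase. Many of their promoters carry a cell cycle genes homology region (CHR), a short element bound by the MuvB complex, together with CCAAT boxes bound by NF-Y. The MuvB complex is joined by repressive pocket proteins in resting cells and by the activators B-MYB and FOXM1 in dividing cells.

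Levels are the deposited FPKM (fragments scaled to exon length and library size), which can be compared between genes because they are divided by length. A difference is log2 of the ratio of FPKM + 1, and it was called at a change of at least 2-fold among the 12669 genes that reached an FPKM of 1 in at least 1 library. All 49 members passed that filter. Fragments recovered from the FPKM gave library totals of 16745607 in HM_Ctrl and 14363065 in HM_DFX, and of 15731519 in LM_Ctrl and 21883853 in LM_DFX. The members were well covered: the median member held 2266, 950, 2508 and 1544 fragments in the libraries in that order, and the least covered, Cenpk, held 137, 50, 141 and 85. Of 6 epithelial markers, 5 reached an FPKM of 1 and Krt5 was listed at 0, with summed levels that were lower with DFX in both clones, at 1489 FPKM in HM_Ctrl against 445 in HM_DFX, and 2076 in LM_Ctrl against 932 in LM_DFX. Of 5 leukocyte markers only Cd68 reached that level, with sums of 12.3 to 83.1 FPKM that were higher with DFX. Cd3e was listed at 0, and 2 of the 5 were at 0 in every library. None of 3 endothelial markers and 1 of 4 fibroblast markers (Pdgfra) reached an FPKM of 1. Of the receptors that define the triple-negative class, Esr1 was under 1 FPKM and Pgr was listed at 0, but Erbb2 was between 3.80 and 12.5 FPKM. The part of these marker levels in the results was not tested.

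Promoter sequence was available for 40 of the 49 members from RefSeq (build GRCm38.p6), as windows from 250 bases before to 50 bases after the annotated start. Ccna2, Aurkb, Incenp, Spc24, Tpx2, Dlgap5, Kif20a, Smc4 and Foxm1 had no entry. The sequences below are the 100 bases before the start, on the strand of the gene, and positions are counted back from −1, the base just before the start. They are shown because CHR and CCAAT letters are the sequence feature that most member promoters hold. The first 5 belong to genes that fell by at least 2-fold in both clones, Cdk1 and Kif11 are genes that did not, and Mybl2 is the member with the highest response to DFX in both clones. These 8 were chosen after the values were seen. Capitals mark the CHR letters TTTGAA or TTTAAA and the box CCAAT on either strand, so that the same letters on the opposite strand appear as TTCAAA and ATTGG.
Plk1: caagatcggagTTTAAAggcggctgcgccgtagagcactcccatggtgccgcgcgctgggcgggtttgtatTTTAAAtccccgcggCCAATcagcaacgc
Ccnb1: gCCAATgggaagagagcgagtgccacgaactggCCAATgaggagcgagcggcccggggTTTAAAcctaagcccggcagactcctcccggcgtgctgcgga
Cdc20: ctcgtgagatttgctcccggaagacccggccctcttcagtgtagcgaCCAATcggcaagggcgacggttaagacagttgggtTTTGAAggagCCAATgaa
Ube2c: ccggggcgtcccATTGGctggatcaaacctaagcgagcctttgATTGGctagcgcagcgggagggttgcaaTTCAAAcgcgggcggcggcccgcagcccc
Espl1: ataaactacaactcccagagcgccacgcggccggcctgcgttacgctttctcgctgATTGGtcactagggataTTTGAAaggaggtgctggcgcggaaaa
Cdk1: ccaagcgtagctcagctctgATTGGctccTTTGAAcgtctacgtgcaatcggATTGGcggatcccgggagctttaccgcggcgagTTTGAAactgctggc
Kif11: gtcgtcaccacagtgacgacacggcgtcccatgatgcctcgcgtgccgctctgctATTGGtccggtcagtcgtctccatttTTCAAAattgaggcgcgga
Mybl2: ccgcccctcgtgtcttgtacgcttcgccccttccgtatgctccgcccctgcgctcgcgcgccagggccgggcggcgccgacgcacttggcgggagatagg
The windows lie at chr7:122159335-122159434 for Plk1 (plus strand), chr13:100786487-100786586 for Ccnb1 (minus strand), chr4:118437344-118437443 for Cdc20 (minus strand), chr2:164769829-164769928 for Ube2c (plus strand), chr15:102296193-102296292 for Espl1 (plus strand), chr10:69352913-69353012 for Cdk1 (minus strand), chr19:37376282-37376381 for Kif11 (plus strand) and chr2:163054535-163054634 for Mybl2 (plus strand). In Plk1 the letters TTTAAA start at position −29 and CCAAT at −14. In Ccnb1 TTTAAA starts at −42, with CCAAT boxes at −99 and −67. In Cdc20, TTTGAA at −18 stands between CCAAT boxes at −53 and −8. Ube2c holds the letters of TTTGAA at −29 on the opposite strand and Espl1 holds them at −27, each with a CCAAT box further upstream. Cdk1 and Kif11 carry the same arrangement, with TTTGAA at −15 in Cdk1 and, on the opposite strand, at −19 in Kif11. None of the letters searched was found in the 300-base window of Mybl2, which says only that these letters are absent from this window.

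TTTGAA or TTTAAA occurred on either strand in 32 of 40 member promoters (80.0%), against 15.2% of 33 promoters of DNA replication genes, 18.4% of 8634 promoters of filtered genes and 27.7% of all 27025 promoters. When only matches starting between positions −60 and +20 were counted, a window chosen after the values were seen, the letters were present in 22 member promoters (55.0%), in 4.05% of filtered genes and in 7.62% of all. All 22 of these also held CCAAT somewhere in the window, an arrangement found in 1.91% of filtered genes and 3.09% of all promoters. CCAAT by itself was found in 75% of member promoters, in 63.6% of replication genes and in 39.4% of filtered genes. AACGG, the core letters of a MYB site, was found in 37.5% of member promoters, in 24.5% of filtered genes and in 17.7% of all promoters. The E2F letters TTTCCCGC and TTTGGCGC were each found in 1 member promoter (2.5%), Ncapg and Ncapd2 respectively. In the replication genes they occurred in 24.2% and 18.2%, in filtered genes in 2.34% and 1.14%, and in all promoters in 1.12% and 0.529%. None of the strings searched contains another.

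The response to DFX was below that of all filtered genes on either side of this sequence division. The 22 members with CHR letters near the start had a median log2 fold change of −1.09 in HM and −0.90 in LM, with 12 and 10 genes lower by at least 2-fold. The 18 members without them had medians of −0.94 and −0.79, with 8 and 7 genes lower by at least 2-fold. All filtered genes had medians of −0.10 in HM and −0.04 in LM, with 12.4% and 8.72% lower by at least 2-fold. Matches are letters in a reference sequence, and binding was not measured.

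**Figure D1:**
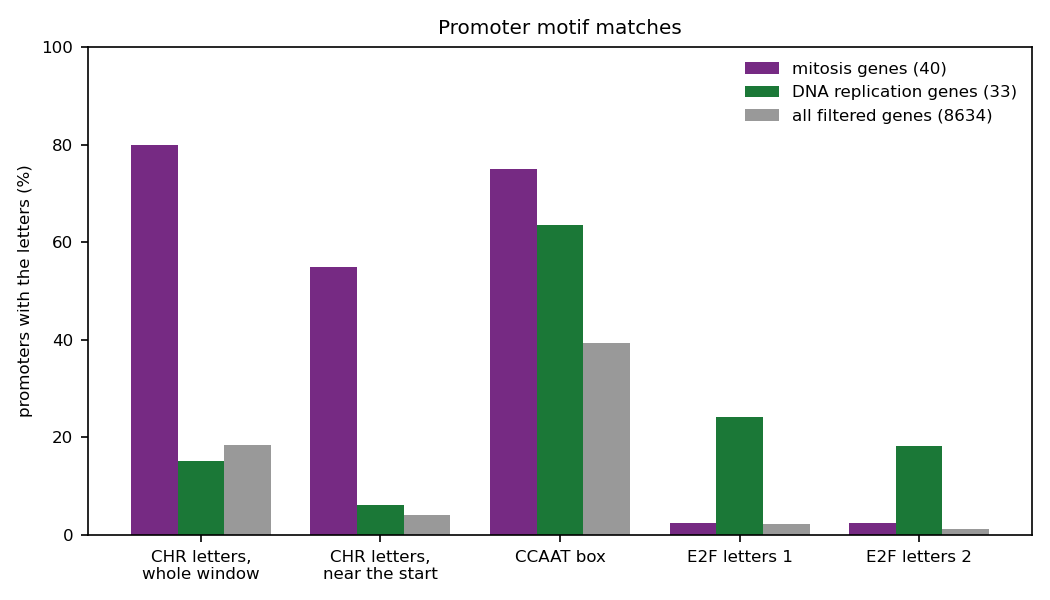
Share of promoters (%, linear axis from 0) that hold each set of letters, for the 40 mitosis genes with a promoter entry, 33 DNA replication genes and 8634 filtered genes. CHR letters are TTTGAA or TTTAAA, near the start means from −60 to +20, and the E2F letters are TTTCCCGC (1) and TTTGGCGC (2). CHR letters are found in 80.0% of the mitosis genes and 15.2% of the replication genes, while both E2F strings are more frequent in the replication genes.

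The question for the members was how the RNA of the mitotic machinery differed after 48 h of DFX in each clone. In 4T1-HM, 48 of the 49 members had a lower level with DFX, and 24 were lower by at least 2-fold, against 12.4% of all filtered genes. None was higher by at least 2-fold, against 6.93%. The median log2 fold change was −0.996, with quartiles of −1.52 and −0.49, and the median of all filtered genes was −0.10. In 4T1-LM, 47 members had a lower level with DFX, 19 were lower by at least 2-fold, against 8.72% of all filtered genes, and none was higher, against 7.09%. The median there was −0.81, beside −0.04 for all filtered genes. Values below 0 were found in 55.9% of all filtered genes in HM and in 52.6% in LM. Under median-ratio scaling 20 members were lower by at least 2-fold in HM, the members' median there was −0.86, and all filtered genes were divided into 1277 lower and 1128 higher, in place of 1568 and 878. In bulk RNA, fewer cells in mitosis and less of these RNAs per cell cannot be told apart.

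Together the 49 members held 0.867% of all recovered fragments in HM_Ctrl (95% exact binomial interval 0.862 to 0.871) and 0.453% in HM_DFX (0.450 to 0.456). They held 0.939% in LM_Ctrl (0.934 to 0.944) and 0.548% in LM_DFX (0.545 to 0.551). The summed level was 1720 FPKM in HM_Ctrl against 856 in HM_DFX, and 1971 in LM_Ctrl against 1045 in LM_DFX. Both treated libraries were therefore below both untreated ones, and LM was above HM at either state. Gene by gene, both DFX libraries lay below both untreated libraries for 43 of the 49 members, against 33.6% of all filtered genes. The exceptions were Ndc80, Spc24, Tpx2, Smc2, Smc4 and Mybl2. For no member did both DFX libraries lie above both untreated ones, against 25.6%. By counting error alone, the interval of the FPKM ratio lay wholly below 1 for 47 members in HM and 46 in LM, against 43.4% and 40.2% of all filtered genes. It lay wholly below 0.5 for 23 and 19, against 11.6% and 8.1%.

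**Figure D2:**
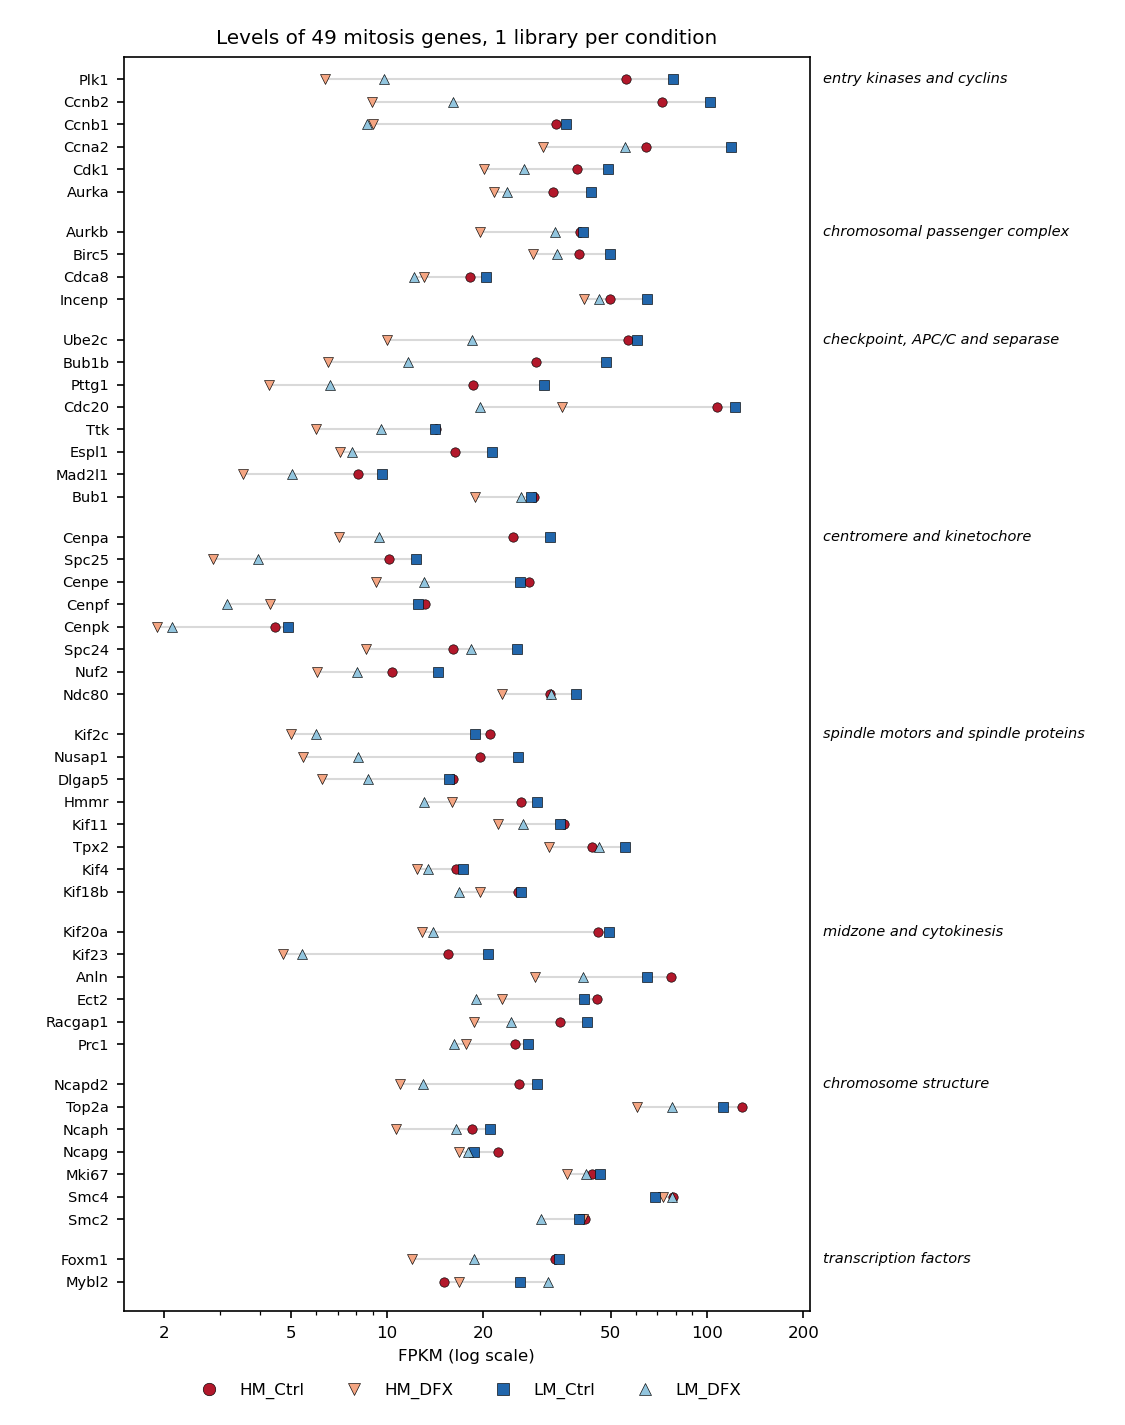
FPKM (log axis) of each of the 49 mitosis genes in the 4 libraries, 1 library per condition, grouped by role and ordered within a role by the response of HM, with a grey line over the range of each gene. The triangles of the DFX libraries lie left of the untreated circles and squares for 43 genes, with Plk1 and Ccnb2 far apart and Smc2, Smc4 and Mki67 close together.

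The kinases and cyclins that carry cells into mitosis held the lowest value of each clone. Of these 6 genes, Plk1, Ccnb2, Ccnb1 and Ccna2 fell by at least 2-fold in both clones, and the median was −1.42 in HM and −1.51 in LM. Plk1 encodes Polo-like kinase 1, which acts on centrosomes, kinetochores and mitotic exit, and it lies at chr7:122159439-122169873 on the plus strand. It stood at 56.0 FPKM in HM_Ctrl against 6.40 in HM_DFX, and 78.1 in LM_Ctrl against 9.75 in LM_DFX. Its log2 fold change was −2.95 in HM and −2.88 in LM, the lowest of the 49 in either clone, and the FPKM ratio was 0.114 (0.0984 to 0.132) in HM and 0.125 (0.113 to 0.138) in LM. Ccnb2, a B-type cyclin, came next in HM, with 72.3 FPKM in HM_Ctrl against 8.96 in HM_DFX, and 102 in LM_Ctrl against 16.1 in LM_DFX. Its log2 fold changes were −2.88 and −2.59, and the FPKM ratio in HM was 0.124 (0.106 to 0.144).

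Ccnb1, the main partner cyclin of Cdk1 at mitotic entry, was at 33.7 FPKM in HM_Ctrl against 9.03 in HM_DFX, and 36.4 in LM_Ctrl against 8.67 in LM_DFX. Its log2 fold changes of −1.79 in HM and −1.95 in LM brought both clones to nearly the same treated level. Ccna2, the cyclin of S and G2 phase, stood at 64.6 FPKM in HM_Ctrl against 30.6 in HM_DFX, and 119 in LM_Ctrl against 55.5 in LM_DFX. Both clones passed the 2-fold line narrowly, with −1.05 in HM and −1.08 in LM, and LM was the higher clone at either state. Cdk1 itself, the kinase, did not reach 2-fold. It was at 39.3 FPKM in HM_Ctrl against 20.01 in HM_DFX, and 49.2 in LM_Ctrl against 26.7 in LM_DFX, with log2 fold changes of −0.94 and −0.86 and an FPKM ratio of 0.509 (0.472 to 0.549) in HM. Aurka, a kinase of centrosome maturation and spindle assembly, was at 33.0 FPKM in HM_Ctrl against 21.5 in HM_DFX, and 43.5 in LM_Ctrl against 23.7 in LM_DFX, with −0.59 in HM and −0.85 in LM. Cdk1 and Aurka thus showed smaller differences than Plk1 and the B-type cyclins within the same 4 libraries.

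The chromosomal passenger complex, which corrects wrong attachments and later guides cleavage, differed less. By log2 of the ratio of FPKM + 1, none of its 4 genes reached 2-fold in either clone. The medians were −0.45 in HM and −0.51 in LM. Aurkb, its kinase, was at 40.0 FPKM in HM_Ctrl against 19.5 in HM_DFX, and 40.9 in LM_Ctrl against 33.5 in LM_DFX. The value in HM was −0.996, which is just short of 2-fold, and −0.28 in LM. The FPKM ratios were 0.489 (0.450 to 0.531) and 0.819 (0.769 to 0.871). Without the added 1, the fall in HM was thus just past 2-fold. LM_DFX thus lay nearer to the untreated libraries than HM_DFX did. Birc5 (survivin), which brings the complex to chromosomes, was at 39.8 FPKM in HM_Ctrl against 28.7 in HM_DFX, and 49.6 in LM_Ctrl against 34.1 in LM_DFX, with −0.46 and −0.53. The remaining subunits, borealin (Cdca8) and the scaffold Incenp, had values between −0.71 and −0.27 over both clones.

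Checkpoint genes, regulators of the APC/C and separase were mostly lower with DFX. Of these 8 genes, 7 fell by at least 2-fold in HM and 5 in LM, with medians of −1.36 and −1.51. Cdc20, the APC/C activator that the checkpoint holds in check, stood at 108 FPKM in HM_Ctrl against 35.2 in HM_DFX, and 123 in LM_Ctrl against 19.4 in LM_DFX. The log2 fold change was −1.58 in HM and −2.60 in LM, and the FPKM ratios of 0.327 (0.304 to 0.352) and 0.159 (0.147 to 0.171) do not overlap within counting error. The untreated clones were close to each other, and HM_DFX was well above LM_DFX. Ube2c, the E2 enzyme that starts ubiquitin chains for the APC/C, differed between the clones the other way. It was at 56.6 FPKM in HM_Ctrl against 9.96 in HM_DFX, and 60.6 in LM_Ctrl against 18.4 in LM_DFX, with −2.39 in HM and −1.66 in LM, so that here HM_DFX was the lowest library.

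Bub1b encodes BubR1, a component of the checkpoint complex that binds Cdc20, and it was at 29.2 FPKM in HM_Ctrl against 6.51 in HM_DFX, and 48.2 in LM_Ctrl against 11.6 in LM_DFX. The fall was alike in both clones, at −2.01 and −1.96. Pttg1, securin, which restrains separase until anaphase, was at 18.5 FPKM in HM_Ctrl against 4.28 in HM_DFX, and 30.96 in LM_Ctrl against 6.60 in LM_DFX, with −1.89 and −2.07. Espl1, separase itself, fell by 1.10 on the log2 scale in HM and by 1.35 in LM. Of the other checkpoint genes, Ttk (the kinase MPS1) and Mad2l1 fell by at least 2-fold in HM, with −1.13 and −1.001. Their values in LM were −0.52 and −0.81. Mad2l1 was the member closest to the line, and it, Espl1, Ccna2 and Top2a were no longer past 2-fold in HM under median-ratio scaling. Bub1, a kinetochore kinase, was the member of this role that did not reach 2-fold in either clone, at −0.59 in HM and −0.10 in LM.

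Of 8 centromere and kinetochore genes, 4 fell by at least 2-fold in HM and 3 in LM, and the medians were −1.16 and −0.93. Cenpa, the histone H3 variant that marks centromeres, stood at 24.7 FPKM in HM_Ctrl against 7.08 in HM_DFX, and 32.3 in LM_Ctrl against 9.43 in LM_DFX. Its fall was the same in both clones within counting error, with FPKM ratios of 0.287 (0.262 to 0.314) in HM and 0.292 (0.273 to 0.312) in LM. Cenpf, a large protein of the outer kinetochore, was at 13.1 FPKM in HM_Ctrl against 4.29 in HM_DFX, and 12.5 in LM_Ctrl against 3.16 in LM_DFX, with −1.42 and −1.70. It was among the 9 members whose lowest library was LM_DFX. The 4 subunits of the NDC80 complex, the microtubule-binding part of the kinetochore, differed among themselves. Spc25 fell by 1.52 in HM and by 1.42 in LM on the log2 scale. Nuf2 was at −0.69 and −0.77, and Spc24 at −0.83 and −0.46. Ndc80 was at 32.4 FPKM in HM_Ctrl against 22.8 in HM_DFX, and 38.8 in LM_Ctrl against 32.5 in LM_DFX, with −0.49 and −0.25, so LM_DFX was level with HM_Ctrl. Cenpe, a kinetochore motor, fell in HM (−1.49) and was just short of 2-fold in LM (−0.95). Cenpk, a subunit of the inner kinetochore, was the least expressed member, with −0.91 in HM and −0.92 in LM. Its FPKM ratio had the widest counting interval, 0.426 (0.301 to 0.592) in HM.

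The spindle genes were divided. Kif2c, Nusap1 and, in HM, Dlgap5 fell by at least 2-fold, whereas Kif11, Kif4, Kif18b and Tpx2 did not in either clone, and the medians of the 8 genes were −0.67 and −0.70. Kif2c, a motor that takes microtubules apart at their ends, had log2 fold changes of −1.87 and −1.498. Nusap1, a microtubule-bundling protein, had −1.66 and −1.55. Kif11 is the motor that pushes spindle poles apart, and it was at 35.7 FPKM in HM_Ctrl against 22.2 in HM_DFX, and 34.6 in LM_Ctrl against 26.6 in LM_DFX. Its FPKM ratio was 0.623 (0.585 to 0.663) in HM and 0.768 (0.728 to 0.811) in LM. Tpx2, the activator of Aurora A on the spindle, was at 43.8 FPKM in HM_Ctrl against 32.1 in HM_DFX, and 55.5 in LM_Ctrl against 45.8 in LM_DFX, with −0.44 and −0.27. LM_DFX exceeded HM_Ctrl for this gene. Hmmr, a spindle protein that also binds hyaluronan, was at 26.2 FPKM in HM_Ctrl against 15.9 in HM_DFX, and 29.4 in LM_Ctrl against 13.0 in LM_DFX. It was past 2-fold in LM (−1.12) and not in HM (−0.68). Dlgap5, which stabilizes microtubules near chromosomes, was at −1.23 in HM and −0.78 in LM. The motors Kif4 and Kif18b were between −0.62 and −0.34 in both clones.

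Genes of the central spindle and of cytokinesis were also divided. Kif20a and Kif23 were past 2-fold in both clones, Anln in HM and Ect2 in LM, and the medians of the 6 genes were −1.17 in HM and −0.92 in LM. Kif20a, a motor of the central spindle, stood at 45.7 FPKM in HM_Ctrl against 12.9 in HM_DFX, and 49.4 in LM_Ctrl against 13.9 in LM_DFX. Its log2 fold change was −1.75 in both clones. Kif23, the motor subunit of centralspindlin, was at −1.53 in HM and −1.75 in LM, while its partner Racgap1 was at −0.86 and −0.76. Anln (anillin), a scaffold of the cleavage furrow, was at 77.4 FPKM in HM_Ctrl against 29.0 in HM_DFX, and 64.7 in LM_Ctrl against 41.0 in LM_DFX. It fell by 1.38 on the log2 scale in HM and was at −0.64 in LM, with FPKM ratios of 0.375 (0.361 to 0.389) and 0.634 (0.615 to 0.653). Ect2, the exchange factor that activates RhoA at the furrow, was on either side of the line, at −0.96 in HM and −1.08 in LM. Prc1, which bundles antiparallel microtubules, was at 25.04 FPKM in HM_Ctrl against 17.6 in HM_DFX, and 27.5 in LM_Ctrl against 16.2 in LM_DFX, with −0.48 and −0.73.

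Chromosome structure genes ranged from 2-fold falls to values near 0. Of 7 genes, Ncapd2 and Top2a fell by at least 2-fold in HM and Ncapd2 in LM, and the medians were −0.39 and −0.33. Condensin I was not uniform. Its subunit Ncapd2 was at 25.9 FPKM in HM_Ctrl against 10.9 in HM_DFX, and 29.3 in LM_Ctrl against 13.0 in LM_DFX, with −1.17 and −1.12. Ncaph was at −0.73 and −0.33. Ncapg was at 22.3 FPKM in HM_Ctrl against 16.8 in HM_DFX, and 18.7 in LM_Ctrl against 17.9 in LM_DFX, with −0.39 and −0.07. The shared ATPase subunits of the condensins differed from these. Smc2 was at 41.7 FPKM in HM_Ctrl against 41.1 in HM_DFX, and 39.7 in LM_Ctrl against 30.4 in LM_DFX. Its value of −0.02 in HM was near 0 and changed sign under 2 of 3 scalings (0.12 by median ratio, 0.04 with protein-coding genes only), and it was −0.37 in LM. Smc4 was at 78.4 FPKM in HM_Ctrl against 72.8 in HM_DFX, and 68.9 in LM_Ctrl against 77.8 in LM_DFX, with −0.11 in HM, which became 0.03 by median ratio, and 0.17 in LM.

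Top2a, the topoisomerase that untangles sister chromatids, was the most abundant member in fragments and stood at 129 FPKM in HM_Ctrl against 60.4 in HM_DFX, and 112 in LM_Ctrl against 77.9 in LM_DFX. The FPKM ratio of 0.469 (0.457 to 0.481) in HM and 0.694 (0.679 to 0.710) in LM differed by more than counting error. Mki67, the proliferation marker Ki-67 that coats mitotic chromosomes, was at 43.6 FPKM in HM_Ctrl against 36.4 in HM_DFX, and 46.4 in LM_Ctrl against 41.7 in LM_DFX. With −0.25 in HM and −0.15 in LM, it stayed near its untreated level in both clones, while Plk1 in the same libraries was lower by more than 4-fold.

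The 2 transcription factors of the list had values of opposite sign. Foxm1, an activator of G2 and M phase genes, was at 33.6 FPKM in HM_Ctrl against 11.9 in HM_DFX, and 34.4 in LM_Ctrl against 18.7 in LM_DFX. It fell in HM (−1.42) and did not reach 2-fold in LM (−0.85), with FPKM ratios of 0.356 (0.331 to 0.382) and 0.544 (0.515 to 0.574). Mybl2 encodes B-MYB, whose own gene is switched on at the start of S phase. It was at 15.1 FPKM in HM_Ctrl against 16.8 in HM_DFX, and 26.01 in LM_Ctrl against 31.8 in LM_DFX. Its log2 fold changes of 0.15 and 0.28 were the highest of the 49 in each clone and did not reach 2-fold. LM was the higher clone for Mybl2 at either state.

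**Figure D3:**
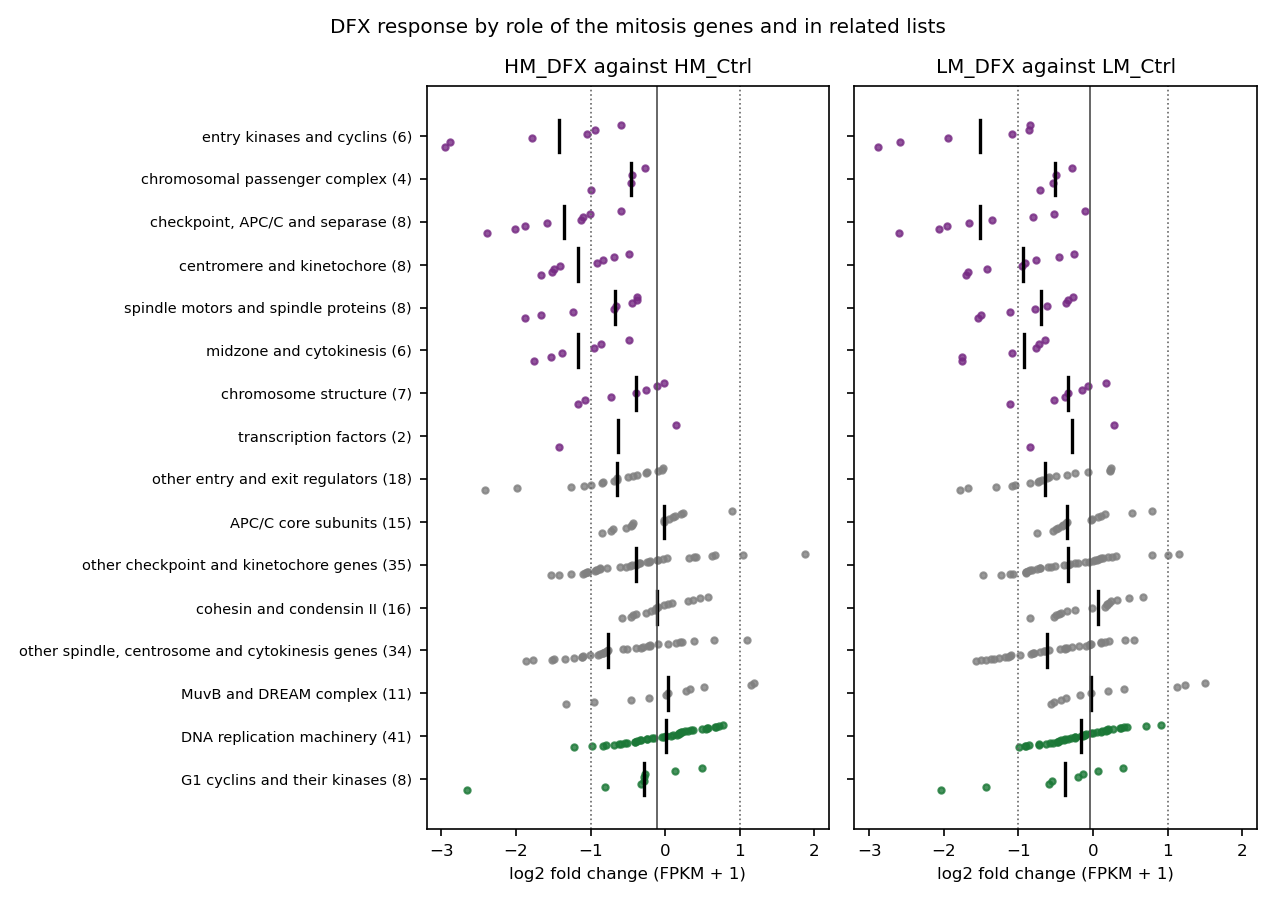
Log2 fold change (FPKM + 1) with DFX in HM (left) and LM (right) for the mitosis genes by role (purple), other mitosis-related lists (grey) and 2 lists of earlier cell cycle phases (green), with the number of genes in brackets. Black bars are list medians, the solid vertical line is the median of all filtered genes and dotted lines mark 2-fold. Entry kinases and the checkpoint group have medians beyond −1.3 in both clones, while the replication genes centre at 0.01 and −0.17.

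The members just inside and just outside the 2-fold line were as follows. In HM, Ccna2 and Mad2l1 were just past it at −1.05 and −1.001, and Aurkb and Ect2 just short at −0.996 and −0.96. In LM, Ect2 and Ccna2 were just past it, both at −1.08, and Cenpe and Cenpk just short at −0.95 and −0.92. Counts at this line therefore depend on genes that differ by a few hundredths. They also depend on the 1 added to each FPKM. The plain FPKM ratio was past 2-fold for Aurkb in HM (0.489) and Cenpe in LM (0.498). For Cenpk it was so in HM (0.426) and LM (0.433).

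The response in the clones overlapped widely. Of the 49 members, 17 fell by at least 2-fold in both clones, against 5.32% of all filtered genes. These are 70.8% of the HM list and 89.5% of the LM list. They are Plk1, the 3 cyclins, Cdc20, Ube2c, Bub1b, Pttg1, Espl1, Cenpa, Cenpf, Spc25, Kif2c, Nusap1, Kif20a, Kif23 and Ncapd2. A further 7 passed only in HM (Ttk, Mad2l1, Cenpe, Dlgap5, Anln, Top2a and Foxm1) and 2 only in LM (Hmmr and Ect2), and 23 passed in neither. The lists of all filtered genes also overlapped. Of the 12669, 1568 fell by at least 2-fold in HM and 1105 in LM, and 674 of them did so in both. Across the 49 members the values in HM and LM had a Pearson r of 0.88 and a Spearman rho of 0.85, beside 0.72 and 0.70 across all filtered genes. This is a description over genes that share the same 4 libraries, and genes are not independent replicates.

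The size of the response was compared directly between the clones. The difference of log2 fold changes, HM minus LM, was below 0 for 29 members, against 56.5% of all filtered genes, and above 0 for 20, against 43.5%, with a median of −0.08 that equals the −0.08 of all filtered genes. It was 0.00 under median-ratio scaling. No member was lower in HM by at least 2-fold in this difference, against 5.38% of all filtered genes, and Cdc20 was higher (1.01), against 3.52%. The largest differences toward a lower value in HM were Anln (−0.74), Ube2c (−0.73) and Aurkb (−0.71). Toward LM they were Cdc20, Hmmr (0.43) and Smc2 (0.35). The counting intervals of the 2 FPKM ratios did not overlap for 18 members with the lower ratio in HM, against 29.1% of all filtered genes, and for 10 with the higher ratio in HM, against 17.0%. The 18 include Aurkb, Anln, Top2a, Foxm1, Cenpe, Ttk and Kif2c, and the 10 include Cdc20, Hmmr, Espl1, Cenpf, Aurka and Prc1. Variation between cultures was not measured, so none of these is shown to differ between the clones.

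**Figure D4:**
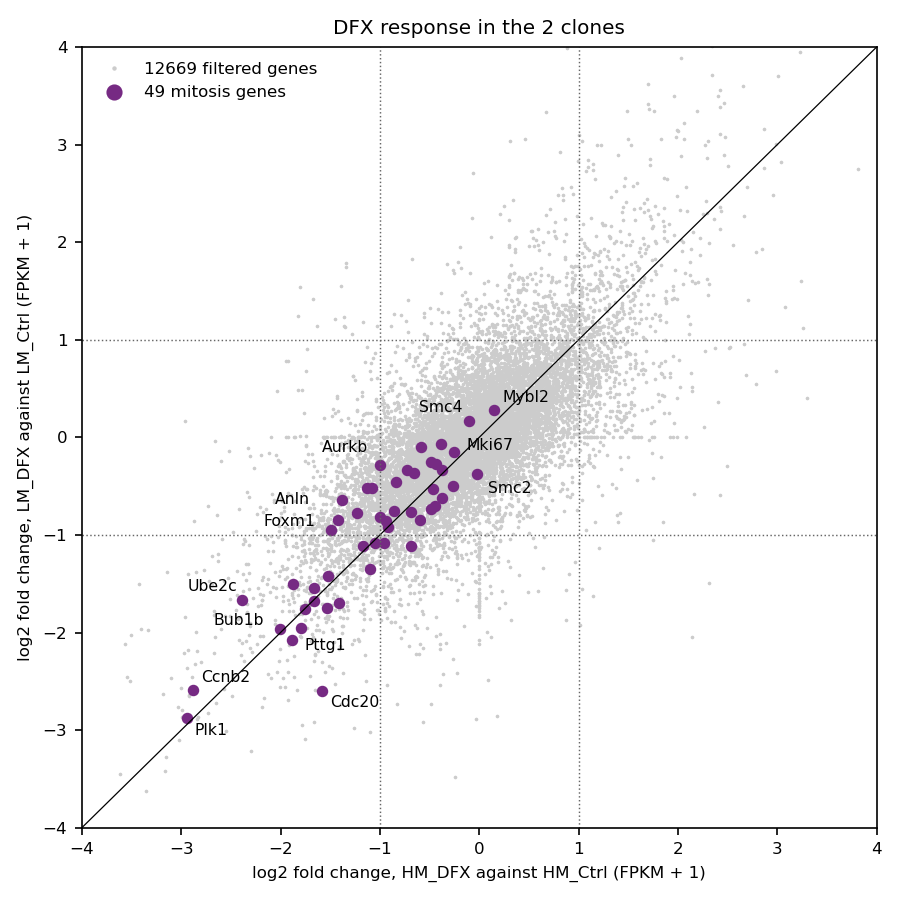
Log2 fold change (FPKM + 1) with DFX in HM (horizontal axis) against LM (vertical axis) for all 12669 filtered genes (grey) and the 49 mitosis genes (purple), with the line of equal response and dotted lines at 2-fold. Axes end at 4, beyond which 29 genes lie. Plk1 and Ccnb2 are at the lower left in both clones, Cdc20 lies below the line of equal response, and Aurkb, Anln and Ube2c lie above it.

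Without drug, the clones were compared to ask whether the members differed before treatment. None differed by at least 2-fold, against 3.15% of all filtered genes lower in HM and 3.65% higher. Of the 49, 36 had a lower value in HM_Ctrl, against 48.2% of all filtered genes, and the median was −0.17 beside 0.01. The largest differences were Ccna2 (−0.87), Mybl2 (−0.75) and Pttg1 (−0.71), all higher in LM. At the other end, Anln (0.25) and Ncapg (0.24) were higher in HM. By counting error, 31 ratios lay wholly below 1, against 29.9% of all filtered genes, and 8 wholly above 1, against 33.4%. LM_Ctrl was the highest of the 4 libraries for 35 members and HM_Ctrl for 13. The same ranking was not counted over all filtered genes, so it is not read as particular to the members.

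With DFX, the median difference between the clones was further from 0. In HM_DFX against LM_DFX the median was −0.36 beside −0.05 for all filtered genes, and 40 members were lower in HM_DFX, against 54.2%. By counting error, 35 ratios lay wholly below 1, against 39.1% of all filtered genes, and 7 wholly above 1, against 30.3%. Only Spc24 was lower by at least 2-fold (−1.01), against 5.05%, and none was higher, against 3.31%. Spc24 was at 16.1 FPKM in HM_Ctrl against 8.58 in HM_DFX, and 25.5 in LM_Ctrl against 18.3 in LM_DFX, and this gene is singled out because it was the only call. It was no longer past 2-fold under any of the 3 other scalings. Cdc20 (0.82) and Smc2 (0.42) were the highest in HM_DFX relative to LM_DFX, and Mybl2 (−0.88) followed Spc24 at the low end. HM_DFX was the lowest library for 38 members and LM_DFX for 9. This ranking too was not counted over all filtered genes. Of those, 55.9% were lower in HM_DFX than in HM_Ctrl and 54.2% lower than in LM_DFX.

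**Figure D5:**
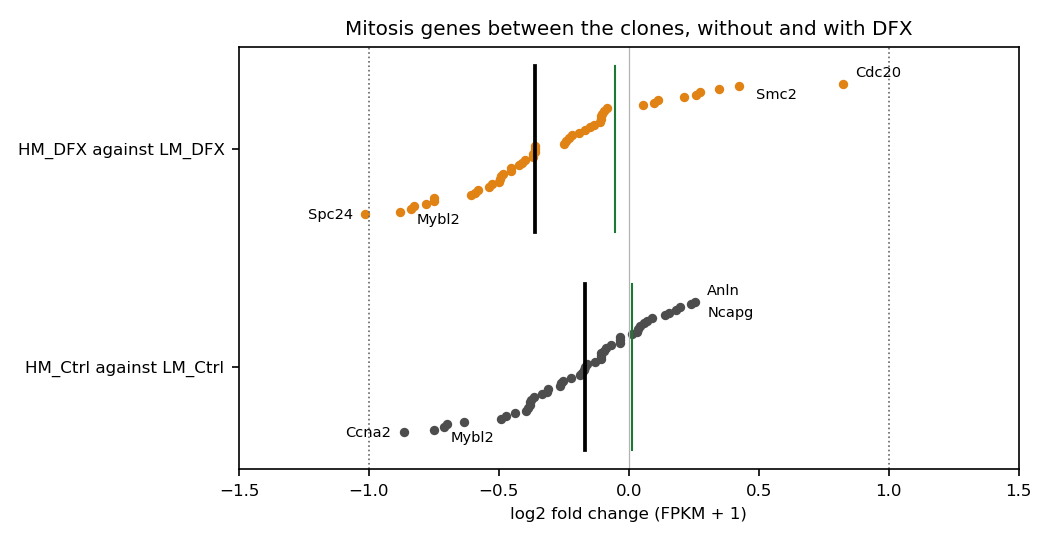
Log2 fold change (FPKM + 1) of HM against LM for the 49 mitosis genes without DFX (grey) and with DFX (orange), each dot 1 gene in rank order. Black bars are member medians (−0.17 and −0.36), green bars the medians of all filtered genes (0.01 and −0.05) and dotted lines 2-fold. Only Spc24 is past 2-fold, with DFX.

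Other genes of the same processes, 130 in 6 lists, were counted in the same way, with no test of their difference from the 49 members. Of the 129 that passed the filter, 22 (17.1%) were lower by at least 2-fold in HM and 19 (14.7%) in LM, beside 12.4% and 8.72% of all filtered genes. In each clone 5 were higher by at least 2-fold, beside 6.93% and 7.09% of all filtered genes. Their medians were −0.39 and −0.37. A list of 15 APC/C genes, its core subunits and the E2 enzyme Ube2s, held no gene past 2-fold in either clone. Its activator Cdc20 and its other E2, Ube2c, are members and are described above. The 16 genes of cohesin and condensin II held none either. Of 18 other regulators of entry and exit, 4 fell in HM and 5 in LM. The lowest were Cdc25b, a phosphatase that activates Cdk1, at −2.41 in HM, and the phosphatase gene Cdkn3, at −1.78 in LM.

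Of 35 other checkpoint and kinetochore genes, 7 (20%) fell and 2 rose in HM, and 4 (11.4%) fell and 2 rose in LM. Among all filtered genes, 12.4% fell and 6.93% rose by at least 2-fold in HM, and 8.72% and 7.09% in LM. The rises are therefore not read as particular to this list. The lowest were Cenpm (−1.54) in HM and Cenpc1 (−1.47) in LM. The highest were Spdl1 (1.87) in HM, which brings dynein to kinetochores, and Nsl1 (1.16) in LM, a subunit of the MIS12 complex. Of 34 other spindle, centrosome and cytokinesis genes, 10 fell in each clone. Haus1, a subunit of the augmin complex, was lowest in HM (−1.87) and Kpna2, an importin, in LM (−1.57). Stil, a centriole assembly factor, rose in HM (1.10). The list of the MuvB and DREAM complex held 11 genes, among them E2f4, E2f5 and genes of pocket proteins. Of these, 1 was lower and 2 higher in HM, and none was lower and 3 higher in LM. Rbl2, which encodes the pocket protein p130, was at −1.33 in HM and −0.17 in LM. Lin54, the subunit that contacts CHR letters, was at 1.196 and 1.13, and Lin37 at 1.16 and 1.51.

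Genes of earlier cell cycle phases in the same libraries were also examined, and their difference from the mitosis genes was not tested. Of 41 genes of the DNA replication machinery, only Gins2 fell by at least 2-fold, in HM (−1.23), and none did in LM. The shares of all filtered genes were 12.4% in HM and 8.72% in LM. The medians were 0.01 and −0.17. Their summed level was 996 FPKM in HM_Ctrl against 1038 in HM_DFX, and 1315 in LM_Ctrl against 1217 in LM_DFX. The mitosis genes therefore summed to 1.73 times the replication genes in HM_Ctrl and to 0.825 times in HM_DFX. In LM the ratio was 1.5 without and 0.859 with DFX. Of 8 G1 cyclins and their kinases, 1 (12.5%) fell by at least 2-fold in HM and 2 (25%) in LM. The HM share is near that of all filtered genes. The medians were −0.29 and −0.37. Ccnd1 (cyclin D1) fell in both clones, at −2.66 in HM and −2.04 in LM, and Ccne1 (cyclin E1), named after its value was seen, fell in LM (−1.44).

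Some members share sequence with other genes, which limits how surely fragments can be assigned. Of the 31-base words of their transcripts, more than 20% also occurred in other genes for Ccnb1 (27.8%, with the pseudogene Ccnb1-ps), Cdc20 (26.7%, with Gm7856), Ube2c (25.3%, with Tnnc2), Kif20a (26.7%, with Cdc23) and Mybl2 (21.1%, with Gm3320). Tnnc2 and Cdc23 lie on the opposite strand and overlap the exons of Ube2c and Kif20a. Ccnb1-ps was between 0.213 and 1.78 FPKM, Gm7856 was listed at 0, Tnnc2 did not exceed 0.261 FPKM and Cdc23 was between 3.97 and 7.77 FPKM, a larger level beside Kif20a than the others beside their members. Gm3320 was not analysed here. Without these 5 members, 20 were lower by at least 2-fold in HM and 15 in LM. Sharing below 20% was also present, and 17 members in all shared more than 5% of their words. Plk1 shared 18.7%, with Plk-ps1 sharing the most, and the level of Plk-ps1 was not examined.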

How the data were processed

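Bulk RNA was sequenced as 4 libraries, 1 per condition, grouped by the sample labels. The authors selected poly(A) RNA, made directional libraries and sequenced paired-end reads, and the submitters' processing notes name FastQC, Trimmomatic, HISAT2, featureCounts and mm10. The strand setting and versions are not given in the sources used here. The authors deposited FPKM per gene and library, without a filter on low values. Whether wells were combined before extraction is not given there either.

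Fold changes are log2 of the ratio of FPKM + 1 over the 12669 genes that reached an FPKM of 1 in any library. A call is a change of at least 2-fold, without a test. Of 21067 genes above 0, 18236 had coordinates equal to GENCODE release M21. With the exon lengths of that release, 96.8% of the 18236 gave whole fragments, within 0.02. For 8 members the length was solved from the FPKM themselves, within 0.01, as the smallest that gave whole fragments in every library. Cenpk was among them, so its fragments and interval rest on a solved length. Recovered fragments reached 99.5% of each total. Intervals (95%, exact binomial, SciPy 1.17.1, Python 3.11.15) cover counting error only. The fold-change calls and intervals were tried on simulated counts with planted changes. Those counts held counting error only, so the trial says nothing about variation between cultures.

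The members and lists were chosen with earlier results of these data known. The named genes were a set list of 24, plus the 5 lowest and 3 highest responses in each clone, the 3 largest differences between the untreated clones and the 3 largest differences in response each way. Of the listed genes, 3 were matched by their newer symbol. As alternatives, the pseudocount was set to 0.1, the filter was dropped or applied to the mean FPKM, and median-ratio scaling, 75th percentile scaling, protein-coding genes alone and lines at 1.5-fold and 4-fold were tried.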

Additional observations from a re-analysis of the deposited data

Results flagged for a closer look

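Smc4, a core ATPase subunit of the condensins, was picked out because the clones had opposite signs. It was at 78.4 FPKM in HM_Ctrl against 72.8 in HM_DFX, a log2 fold change of −0.11, and at 68.9 FPKM in LM_Ctrl against 77.8 in LM_DFX, a log2 fold change of 0.17. The difference, HM minus LM, was −0.28. It was not tested, since each value rests on 1 library. Under median-ratio scaling the value in HM was 0.03, so the signs no longer differed.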

How the results depend on the processing

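No paired analysis was possible because each condition is 1 library and the labels carry no replicate numbers. For the same reason no library could be left out. Over the planned pseudocount, filters and scalings, 20 to 26 members were lower by at least 2-fold in HM with DFX and 19 to 20 in LM, and none was higher. Median-ratio scaling moved the median of all filtered genes in HM from −0.10 to 0.00. It gave 1277 genes lower and 1128 higher by at least 2-fold there, in place of 1568 and 878, and put the members' median at −0.86. Relative to the median of all genes, the members' median was −0.89 without and −0.86 with that scaling. Ccna2, Mad2l1, Espl1 and Top2a lost their call in HM under it, Ccna2 and Mad2l1 with protein-coding genes only, and Mad2l1 with 75th percentile scaling. The single call between the treated clones, Spc24, became 0 calls under each of these 3 scalings. At 1.5-fold, 36 members were lower in HM and 32 in LM, beside 26% and 20% of all filtered genes. There 5 were lower between the untreated clones and 9 between the treated clones, beside 8.7% and 14.6%. Between the treated clones 1 member, Cdc20, was higher, beside 1260 of all 12669 filtered genes. At 4-fold the lower members numbered 4, 4, 0 and 0 in that order, beside 1.31%, 1.06%, 0.434% and 0.466%. The share of member promoters with CHR letters was 80.0% in the whole window and 55.0% from −60 to +20. That window and the count without 5 members that share sequence (20 in HM, 15 in LM) were chosen after seeing the data. No direction of a called member changed. Smc2 in HM changed sign (0.12 by median ratio, 0.04 with protein-coding genes), as did Smc4 (0.03 by median ratio). Depth limits Cenpk most, and the spread between cultures could not be estimated.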
